A study of Mus musculus with 51 samples.

Results

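The 10 genes described here cover the entry of pyruvate into the mitochondrial matrix and its conversion to acetyl-CoA: the pyruvate carrier subunits Mpc1 and Mpc2, the pyruvate dehydrogenase (PDH) genes Pdha1, Pdhb and Dlat, the PDH kinases Pdk1, Pdk2, Pdk3 and Pdk4, and the PDH phosphatase Pdp1. They were taken by symbol, 10 of the 48294 gene symbols that could be joined between the deposited count tables of both batches. All 10 passed the filter on low counts in each batch. The libraries came from whole snap-frozen mouse gastrocnemius, a calf muscle made mostly of fast fibres. Each library was a 3′ mRNA library (QuantSeq, which counts reads near the end of each transcript) made from 300 ng of RNA, and each of the 51 stood for 1 numbered animal.

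In batch 1 there were 7 controls carrying floxed Bmal1 alleles (Bmal1fx/fx) and 5 Bmal1 knockouts on a high-fat diet, and 4 such controls and 3 Bmal1 knockouts on regular chow. Batch 2 was all on a high-fat diet. It held 8 Bmal1fx/fx controls with 4 Bmal1 knockouts, 6 Vhlfx/fx controls with 4 Vhl knockouts, and 6 controls floxed at both genes (Bmal1fx/fx;Vhlfx/fx) with 4 double knockouts (Bmal1KO;VhlKO). Every control therefore carried floxed alleles, and each knockout was compared with the controls of its own alleles. The series describes the BMAL1 deletion as specific to skeletal muscle. The labels do not state the Cre driver, the deleted exons, the tissue in which Vhl was deleted, or the age, sex and hour of harvest.

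Pyruvate made by glycolysis crosses the inner mitochondrial membrane through a carrier built from MPC1 and MPC2, each of which needs the other for a stable carrier. In the matrix the PDH complex converts it to acetyl-CoA: the E1 enzyme (alpha subunit Pdha1, beta subunit Pdhb) removes carbon dioxide, the E2 enzyme (Dlat) passes the acetyl group to coenzyme A, and the E3 enzyme (Dld) restores E2. PDH kinases phosphorylate E1 alpha and switch the complex off, and PDH phosphatases such as PDP1 remove the phosphate and switch it on. PDK4 is the kinase known for its induction in muscle by fasting and fatty acids, and PDK1 and PDK3 are known targets of hypoxia-inducible factor (HIF). BMAL1 is the clock transcription factor that binds E-boxes with CLOCK, and VHL is the ubiquitin ligase subunit that marks HIF alpha subunits for degradation.

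Batch 1 libraries held between 8722659 and 14706388 counts each, batch 2 libraries between 6945247 and 14717795. Mitochondrially encoded transcripts took 23.3% to 42.4% and 16.6% to 38.8% of them. The 10 muscle fibre markers were detected in every group and none was at 0 throughout. Levels below are CPM, the read count as a rate of the library's total, scaled by the trimmed mean of M values (TMM) and comparable only within a batch. Calls are from edgeR's quasi-likelihood test with Benjamini-Hochberg adjustment over all genes tested, at an adjusted p under 0.05. The p-values weigh a group difference against the spread between animals as labelled, estimated over all groups of the fit. In whole muscle, fewer cells of a type and less RNA per cell cannot be told apart.

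The targeted genes were read first. Arntl, the gene for BMAL1, ran from 12.2 to 18.7 CPM in the batch 1 high-fat controls and from 5.29 to 9.03 CPM in the matching knockouts, a log2 change of -1.02 ± 0.22 (SE, adjusted p = 0.00255). On chow its change was -0.91 (adjusted p = 0.0821), in batch 2 -0.24 (adjusted p = 0.239), and in the double knockout -0.48 (adjusted p = 0.00213). Vhl fell by 0.85 on the log2 scale in the Vhl knockouts (adjusted p = 0.0217) and by 0.78 in the double knockouts (adjusted p = 0.018), with overlapping libraries in both. A 3′ tag outside the deleted exons would keep being counted, so these values check the labels only in part. The 12 fixed E-box clock output genes, among them Nr1d1 and Tef, had 9 lower in batch 1 Bmal1 knockouts, 8 on chow, 10 in batch 2 and 9 in the double knockout, and 6 lower in the Vhl knockouts. The repressor gene Cry1 was higher on chow, in batch 2 and in the double knockout, and Cry2 in the Vhl knockouts.

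In Bmal1 knockouts 1 subunit of the pyruvate carrier was lower. Mpc1 fell in both batches and on both diets, by 1.5 to 1.6 times, while Mpc2 passed no test. Pdp1 was lower in 2 of these 3 comparisons, Pdk4 was higher in 1 of them, and no E1, E2 or other kinase gene passed. On the high-fat diet in batch 1, 1 of the 10 members was lower and none higher, where 9% of all 12762 genes tested passed (3.82% higher, 5.18% lower). On chow 2 were lower, where 3.84% passed (1.55% higher, 2.29% lower). In batch 2 there were 2 lower and 1 higher, where 13.9% of 13093 genes passed (6.94% higher, 6.96% lower). The member median log2 change was 0.00, 0.07 and 0.03 in the 3 comparisons, beside 0.00, -0.00126 and -0.00777 over all genes. Without TMM scaling all genes called went from 488 higher and 661 lower to 1227 and 371 in batch 1, from 198 and 292 to 319 and 206 on chow, and from 909 and 911 to 1382 and 613 in batch 2, the median gene moving up by 0.16, 0.07 and 0.08. Members then numbered 0 higher and 1 lower, 0 and 2, and 2 and 2.

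Mpc1 lies on chr17:8282904-8297661 (GRCm38, plus strand). In batch 1 on the high-fat diet its control libraries ran from 33.3 CPM through a median of 45.8 to 47.8 CPM, and the knockouts held 35.5, 26.0, 20.9, 29.8 and 22.7 CPM. Only knockout animal 1 reached into the control range. The log2 change was -0.69 ± 0.12 (SE, adjusted p = 9.66e-05). On chow the controls held 50.7, 42.2, 48.9 and 49.1 CPM and the knockouts 33.8, 23.2 and 32.003 CPM, and the groups did not overlap. That difference was -0.69 ± 0.15 (adjusted p = 0.00559). It no longer passed without knockout animal 2, at -0.54 (adjusted p = 0.0735).

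In batch 2 the Mpc1 controls ran from 37.8 through 44.1 to 56.7 CPM and the knockouts held 27.6, 27.7, 31.0 and 33.3 CPM. Every knockout lay below every control, for a log2 change of -0.60 ± 0.11 (adjusted p = 3.57e-05). With both batches in 1 fit the change was -0.64 ± 0.08 (adjusted p = 1.37e-08, 22.4% of 12565 genes called, 11.1% higher and 11.3% lower), and the batches differed by -0.09 ± 0.15 (adjusted p = 0.994, 0.00796% of genes called). Libraries of the 2 groups separated completely for 0 members in batch 1 on the high-fat diet, 2 on chow and 1 in batch 2, where 6.08%, 11.8% and 9.95% of all genes separated.

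Mpc2, on chr1:165460637-165481214 (plus strand), had overlapping libraries in the Bmal1 comparisons of both batches and on both diets. In batch 1 it averaged 200.5 CPM ± 21.8 (SD, n = 7) in high-fat controls and 197 ± 29.4 (n = 5) in knockouts, and in batch 2 279 ± 23.1 (n = 8) and 264 ± 29.6 (n = 4). The log2 differences were -0.03 ± 0.10, 0.03 ± 0.13 on chow and -0.08 ± 0.09 in batch 2, the last with a 95% interval from -0.26 to 0.10. The count of Mpc1 per 100 counts of Mpc2 within a library needs no scaling between libraries. It was 17.0 to 27.8 in batch 1 high-fat controls and 12.0 to 14.9 in knockouts, 22.3 to 32.3 and 12.6 to 17.5 on chow, and 12.9 to 19.1 and 9.63 to 13.6 in batch 2. The ranges were apart in batch 1 on both diets and overlapped at their edges in batch 2. A ratio of 2 genes shows only that they differed from each other, and it was not tested.

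**Figure D1:**
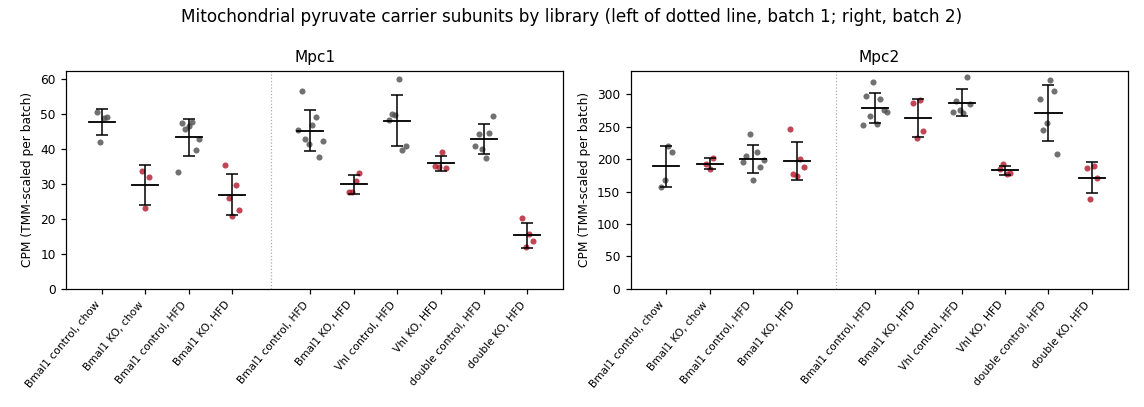
CPM of Mpc1 and Mpc2 in every library, by group, with controls in grey, knockouts in red, bars at the mean ± SD and a dotted line between the batches, whose levels are not comparable. Mpc1 is lowest in the double knockouts, at 11.9 to 20.2 CPM, and Mpc2 is low in the Vhl and double knockouts only among batch 2 groups, at 138 to 192 CPM.

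The E1 and E2 genes of Bmal1 knockouts lay within or beside the control ranges. In batch 2 Pdha1, E1 alpha, averaged 241 ± 12.5 CPM (SD, n = 8) in controls and 252 ± 12.5 (n = 4) in knockouts, and Dlat 87.0 ± 2.47 and 90.1 ± 3.51 CPM. Pdhb, E1 beta, held 176, 184, 178 and 187 CPM in knockouts against 148 to 190.0 CPM in controls. Its difference of 0.16 ± 0.07 missed the threshold (adjusted p = 0.11), though it passed without control animal 13 (0.20, adjusted p = 0.0319) and without scaling (0.25, adjusted p = 0.00391), and in batch 1 on the high-fat diet it was 0.11 ± 0.10 (adjusted p = 0.65). Over the 3 Bmal1 comparisons the log2 differences of these 3 genes ran between -0.06 and 0.16. The 95% intervals in batch 2 were -0.05 to 0.18 for Pdha1, 0.03 to 0.30 for Pdhb and -0.08 to 0.18 for Dlat.

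Of the other parts of the complex fixed as a list (Pdhx, Dld, a second phosphatase, its regulatory subunit Pdpr, and genes for the lipoate and thiamine cofactors), 4 of 10 were higher in batch 2 Bmal1 knockouts and none lower, with a median of 0.25. Among them were Pdpr (0.35, adjusted p = 0.00187), the lipoate synthase Lias (0.23) and the E3-binding subunit Pdhx (0.28, adjusted p = 0.0418). In batch 1 none of the 10 was higher on either diet, and 1, the thiamine transporter Slc19a2, was lower on the high-fat diet at -1.10 ± 0.24 (adjusted p = 0.00133). The batch 1 medians were 0.14 on the high-fat diet and 0.10 on chow. Of these 10 genes 0 passed the test of a difference between the batches, where 0.00796% of all genes did. The joint fit had 5 of 10 higher and 2 lower, with a median of 0.18, where 22.4% of all genes passed.

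Among the kinases, Pdk4 passed a test after Bmal1 loss, in batch 2 alone. Pdk4 lies on chr6:5483351-5496309 (minus strand). Its batch 2 controls ran from 262 through a median of 365 to 512 CPM and its knockouts held 586, 506, 523 and 488 CPM, so that 2 of the 4 knockouts lay above every control. The log2 change was 0.49 ± 0.16 (adjusted p = 0.0399). Leaving out 1 library at a time ended this call in 10 of 12 cases, with the adjusted p reaching 0.142 without knockout animal 8, and it was also lost with no filter on low counts (adjusted p = 0.0672).

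In batch 1 on the high-fat diet Pdk4 ran from 616 through 731 to 937 CPM in controls and held 937, 699, 619, 932 and 783 CPM in knockouts, a difference of 0.07 ± 0.16 (adjusted p = 0.902). On chow the 4 controls held 778, 734, 828 and 709 CPM and the 3 knockouts 1029.7, 596 and 1361 CPM. The knockouts lay on both sides of the controls, and the difference of 0.38 ± 0.21 did not pass (adjusted p = 0.471). Without knockout animal 2 of that group it was 0.65 (adjusted p = 0.0209). The difference between the batches in the effect on Pdk4, batch 1 minus batch 2, was -0.42 ± 0.20 (adjusted p = 0.876), and in the joint fit Pdk4 stood at 0.28 ± 0.11 (adjusted p = 0.0618). That joint value passed without batch 1 control animal 3 or 4, batch 1 knockout animal 2 or 3, or batch 2 control animal 14, with adjusted p from 0.0198 to 0.0418, and by DESeq2 (adjusted p = 0.0186). Without scaling the joint fit called 2692 genes higher and 789 lower, against 1396 and 1419, with 5 members higher and 2 lower and the median gene moved by 0.11.

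Pdk1, Pdk2 and Pdk3 passed no test in Bmal1 knockouts. Pdk1 lay between 15.0 and 24.3 CPM over all 19 batch 1 libraries, and in batch 2 held 21.2, 22.4, 20.7 and 23.4 CPM in knockouts against 19.9 to 28.7 CPM in controls (-0.16 ± 0.09, adjusted p = 0.305). Pdk2 differed by 0.05 ± 0.10, 0.07 ± 0.13 and 0.02 ± 0.07. Pdk3 was close to the detection limit, with means from 0.60 to 1.36 CPM across these groups, and its differences had standard errors of 0.33 to 0.66.

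Pdp1, on chr4:11958184-11966452 (minus strand), was the other member that fell. In batch 2 its controls ran from 19.1 through 28.1 to 34.8 CPM and its Bmal1 knockouts held 17.9, 16.4, 19.2 and 14.2 CPM. The highest knockout was level with the lowest control and the rest were below it, for a log2 change of -0.72 ± 0.12 (adjusted p = 5.25e-06). On chow the controls held 22.0, 15.3, 21.6 and 26.1 CPM and the knockouts 10.8, 12.8 and 13.3 CPM, with no overlap (-0.78 ± 0.20, adjusted p = 0.0194). Leaving out control animal 4 or any single knockout ended the chow call, with adjusted p between 0.055 and 0.108.

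On the high-fat diet in batch 1 Pdp1 ran from 12.3 through 15.0 to 25.5 CPM in controls and held 12.1, 14.0, 16.5, 11.1 and 12.8 CPM in knockouts. Its difference of -0.36 ± 0.15 did not pass (adjusted p = 0.158). The effect did not pass the test of a difference between the batches (0.36 ± 0.21, adjusted p = 0.928), and the joint fit gave -0.53 ± 0.11 (adjusted p = 0.000496).

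Around these genes, enzymes that make or use pyruvate moved both ways in Bmal1 knockouts: of 12 tested, 3 were higher and 5 lower in batch 1 on the high-fat diet, 2 and 3 on chow, and 3 and 5 in batch 2. The malic enzyme Me3 was higher by 0.89 and the alanine aminotransferase Gpt by 1.16 in batch 2, and the lactate dehydrogenase Ldha was lower by 0.52 and the lactate exporter Slc16a3 by 0.59. Genes known as PPAR targets, the fatty acid sensors linked to Pdk4, had 7 of 23 higher and 1 lower in batch 2, and 8 and 1 in batch 1 on the high-fat diet. Among regulators of the PDH kinase genes, the retinoid receptor Rxra was lower in all 3 comparisons, at -0.56, -0.48 and -0.51.

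Of the 10 lymphocyte markers 2 passed the filter on low counts. The immunoglobulin chain Ighm was higher in all 3 Bmal1 comparisons, at 2.55, 1.98 and 1.94, and Cd74, a chaperone of class II antigen presentation, did not pass in any, at -0.02, 0.03 and -0.33. Summed lymphocyte markers were 229 to 362 CPM in batch 1 high-fat knockouts and 52.8 to 121 CPM in controls, 229 to 324 and 45.1 to 186 CPM on chow, and 342 to 378 and 61.1 to 206 CPM in batch 2. In the batch 2 knockouts 3 of the 10 markers, Cd79a and Cd3g among them, were at 0 in all libraries. Muscle fibre markers summed to 119956 to 122945 CPM in batch 2 Bmal1 knockouts and 129596 to 141863 CPM in controls, with 1 of 10 higher and 2 lower, and in batch 1 on the high-fat diet to 94788 to 115379 CPM and 108448 to 133440 CPM, with 2 of 10 lower. In batch 2 knockouts the macrophage markers C1qc (-0.53) and Cd68 (-0.88) were lower of 9 (60.8 to 76.2 CPM summed against 74.7 to 125 CPM), and the endothelial marker Eng (-0.54) was lower of 8 (117 to 143 CPM against 121 to 140.2 CPM). Of the 8 adipocyte markers Plin4 was lower in batch 1 on the high-fat diet, at -0.45. No other macrophage, endothelial or adipocyte marker and no slow fibre marker passed in these 3 comparisons. The part of these cells in the member values was not tested.

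Deletion of Vhl moved nearly every member. Pdk1 and Pdk3 rose, by 3.2 and 5.1 times, Mpc1, Mpc2, Pdha1, Pdhb, Dlat, Pdk2 and Pdp1 fell by 1.3 to 2.2 times, and Pdk4 did not pass. With 2 higher and 7 lower, 9 of 10 members passed, where 37.2% of 13093 genes did (17.7% higher and 19.5% lower). The member median log2 change was -0.49, beside 0.01 over all genes and -0.66 over the 10 muscle fibre markers. For the same 9 members the libraries of knockouts and controls did not overlap, which held for 22.4% of all genes.

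The transcripts differed in total composition in these knockouts, so directions are relative to the median gene. Without TMM scaling the median of all genes moved up by 0.34 in the Vhl comparison, and the genes called went from 2320 higher and 2556 lower to 5815 and 684. Members then numbered 3 higher and 5 lower: Mpc1 stood at -0.07 (adjusted p = 0.63) and Pdk2 at -0.07 (adjusted p = 0.491), no longer passing, and Pdk4 at 0.57 (adjusted p = 0.00508). Muscle fibre markers fell for 9 of 10, summing to 80054 to 85620 CPM in Vhl knockouts and 113033 to 146055 CPM in controls, myoglobin (Mb) being higher at 0.59. Endothelial markers rose for 8 of 8 (254 to 328 CPM against 133 to 156 CPM), macrophage markers for 4 of 9 (81.4 to 151 against 71.0 to 133 CPM) and slow fibre markers for 6 of 8 (617 to 3897 against 922 to 1524 CPM). Adipocyte markers fell for 3 of 8 (593 to 796 against 484 to 1174 CPM). No marker of these 5 lists was at 0, and the part of these shifts in the member changes was not tested.

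The rise of Pdk1 and Pdk3 gives a reason to show the sequence around their starts. RefSeq (GRCm38.p6) held a promoter of 300 bases, 250 before to 50 after the annotated start, for 9 of the 10 members. The letters ACGTG or GCGTG, the core of the site HIF binds, were searched on both strands, as was the E-box CACGTG, which holds ACGTG on each strand. The core occurred in 43.8% and the E-box in 7.15% of all 32851 promoters. In the first RefSeq promoter of Pdk1 (chr2:71872974-71873273, plus strand), in that of Pdk3 (chrX:93832101-93832400, minus strand) and in that of Pdk4 (chr6:5496229-5496528, minus strand), capitals mark the HIF core letters.
Pdk1 promoter: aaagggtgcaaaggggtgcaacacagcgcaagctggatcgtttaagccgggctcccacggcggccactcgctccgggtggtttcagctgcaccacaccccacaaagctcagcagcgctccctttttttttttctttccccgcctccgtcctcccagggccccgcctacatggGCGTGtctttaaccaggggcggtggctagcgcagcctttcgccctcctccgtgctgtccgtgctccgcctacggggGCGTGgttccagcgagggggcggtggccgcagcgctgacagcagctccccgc
Pdk3 promoter: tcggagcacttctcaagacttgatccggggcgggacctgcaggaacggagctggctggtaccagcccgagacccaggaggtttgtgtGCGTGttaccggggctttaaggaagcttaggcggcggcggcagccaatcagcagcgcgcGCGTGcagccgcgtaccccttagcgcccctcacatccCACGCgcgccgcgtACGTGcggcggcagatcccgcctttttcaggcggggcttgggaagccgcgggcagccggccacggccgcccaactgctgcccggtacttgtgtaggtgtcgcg
Pdk4 promoter: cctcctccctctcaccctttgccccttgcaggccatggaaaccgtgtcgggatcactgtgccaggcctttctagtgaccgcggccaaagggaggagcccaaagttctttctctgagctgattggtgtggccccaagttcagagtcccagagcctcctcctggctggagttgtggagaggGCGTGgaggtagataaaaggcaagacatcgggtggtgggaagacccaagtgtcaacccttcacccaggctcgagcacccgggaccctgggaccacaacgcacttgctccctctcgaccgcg
Pdk1 held 2 matches, at 78 and 2 bases before the start, Pdk3 held 4 and Pdk4 held 1. Genes that fell with Vhl loss held them too, in the first RefSeq promoter of each: Pdha1 had 4, Pdhb 2, Mpc1 1, Mpc2 1, Dlat none, and Pdk2 2, both inside its E-box. Pdp1 was the member without a promoter in the table. Mpc1, Pdk1 and Pdk2 each had a second RefSeq promoter, and these held neither the core nor the E-box. A match of these letters is a description and not a bound site.

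Pdk1, on chr2:71873224-71903858 (plus strand), was the member with the smallest p. Its Vhlfx/fx controls ran from 19.2 through 22.7 to 24.2 CPM and the Vhl knockouts held 78.7, 66.0, 68.3 and 74.7 CPM. Every knockout was far above every control. The log2 change was 1.70 ± 0.09 (SE, adjusted p = 6.54e-20). Pdk3, on chrX:93764607-93832201 (minus strand), ran from 0.421 through 0.659 to 1.42 CPM in controls, which is 4 to 12 counts, and held 4.67, 3.08, 4.44 and 3.97 CPM in knockouts, which is 38 to 47 counts. Its change was 2.35 ± 0.31 (adjusted p = 2.9e-08), on a gene read at very few counts.

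Pdk2, on chr11:95026258-95041354 (minus strand), is the kinase expressed in most tissues, and it moved the other way. Controls ran from 175 through 194 to 211 CPM and knockouts held 148, 137, 152 and 149 CPM, without overlap (-0.41 ± 0.07, adjusted p = 1.1e-05). Its first RefSeq promoter (chr11:95041322-95041621, minus strand) was the only one of the 12 member promoters with the E-box, shown in capitals because BMAL1 binds such sites.
Pdk2 promoter: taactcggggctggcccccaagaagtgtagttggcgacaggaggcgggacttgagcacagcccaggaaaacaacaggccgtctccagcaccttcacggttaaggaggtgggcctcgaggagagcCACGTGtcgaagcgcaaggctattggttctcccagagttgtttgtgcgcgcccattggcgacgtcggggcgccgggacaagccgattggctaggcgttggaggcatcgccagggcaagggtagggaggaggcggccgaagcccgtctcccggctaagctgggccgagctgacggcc
Pdk2 did not pass a test after Bmal1 loss alone. Pdk1 per 100 counts of Pdk2 was 9.74 to 13.6 in Vhlfx/fx controls and 44.8 to 53.1 in Vhl knockouts.

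Pdk4 was the member without a call. Its controls ran from 327 through 455 to 517 CPM and the Vhl knockouts held 718, 540.4, 421 and 399.7 CPM. Animals 1 and 2 lay above every control and animals 3 and 4 within them. The difference was 0.22 ± 0.17 (adjusted p = 0.349), with a 95% interval from -0.14 to 0.57.

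**Figure D2:**
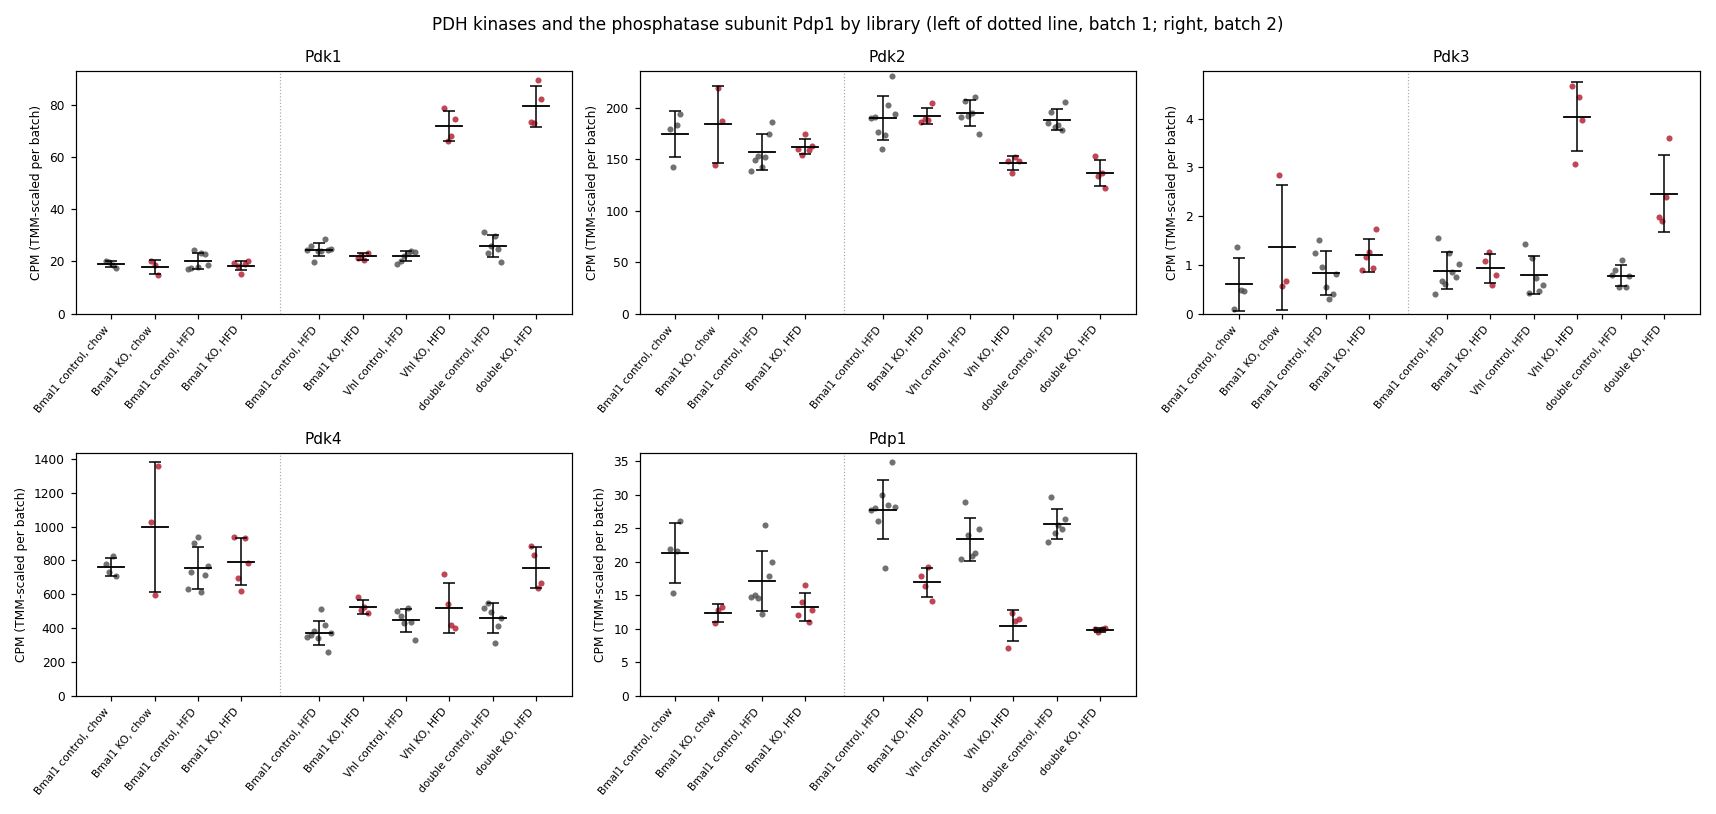
CPM of the 4 PDH kinase genes and Pdp1 in every library, by group, with controls in grey, knockouts in red and bars at the mean ± SD. Pdk1 and Pdk3 stand high in the Vhl and double knockouts, at 66.0 to 89.4 and 1.89 to 4.67 CPM, while Pdp1 stands low there, at 7.06 to 12.3 CPM.

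Pdp1 fell with Vhl loss. Controls ran from 20.3 through 22.6 to 28.8 CPM and knockouts held 7.06, 12.3, 11.2 and 11.4 CPM, all below every control (-1.15 ± 0.13, adjusted p = 8.16e-10). Counts of Pdk1 per 100 counts of Pdp1, a kinase against a phosphatase in the same library, were 69.7 to 114 in controls and 536 to 1114 in Vhl knockouts. For comparison, these ranges were 69.8 to 125 and 108 to 165 in batch 2 Bmal1fx/fx controls and knockouts.

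The subunits of the complex fell together. Dlat, on chr9:50634633-50659780 (minus strand), ran from 80.6 through 81.3 to 94.5 CPM in controls and held 51.3, 46.2, 37.8 and 53.3 CPM in Vhl knockouts (-0.83 ± 0.07, adjusted p = 3.73e-13). Pdha1, on chrX:160122209-160138413 (minus strand), ran from 222 through 231 to 266 CPM and held 155, 170.4, 141 and 164 CPM (-0.57 ± 0.06, adjusted p = 4.86e-10). Pdhb, on chr14:8165996-8173025 (minus strand), ran from 153 through 168 to 174 CPM and held 108, 104, 104 and 133 CPM (-0.57 ± 0.07, adjusted p = 2.54e-08). In all 3 genes the knockouts lay below every control. Dlat per 100 counts of Pdha1 was 34.2 to 37.9 in controls and 26.8 to 33.2 in Vhl knockouts, so E2 stood lower against E1 alpha, with no test.

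**Figure D3:**
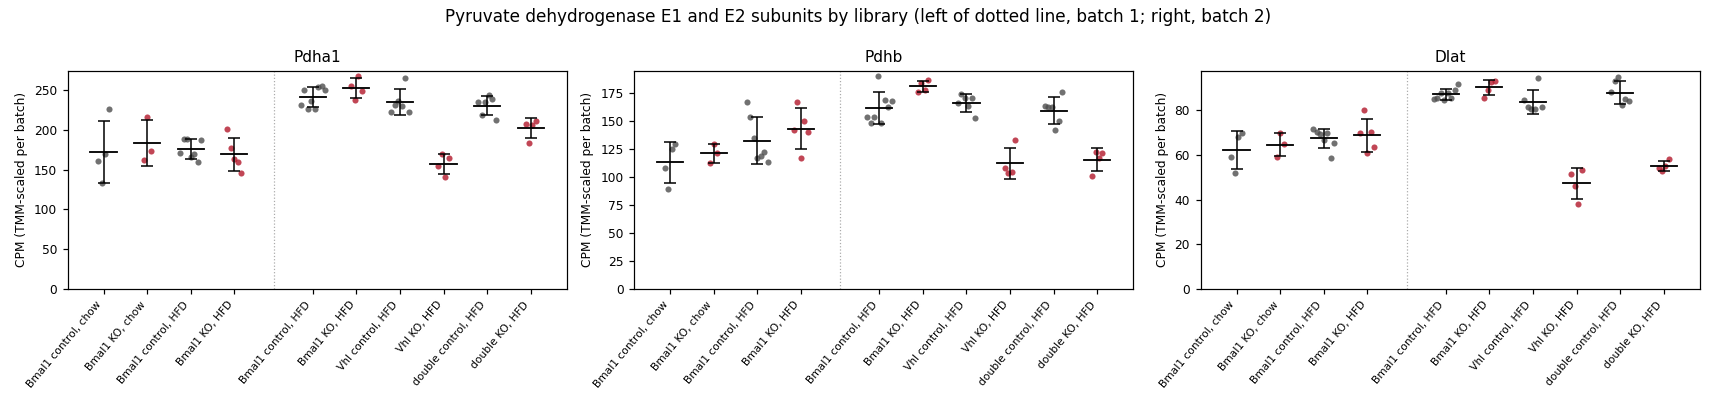
CPM of Pdha1, Pdhb and Dlat in every library, by group, with controls in grey, knockouts in red and bars at the mean ± SD. In batch 2 Dlat is 37.8 to 58.0 CPM in the Vhl and double knockouts and 80.6 to 94.8 CPM in all controls, and the Bmal1 knockouts lie among the controls.

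The carrier fell less evenly. Mpc2 ran from 271 through 280.2 to 327 CPM in controls and held 185, 192, 177 and 178 CPM in Vhl knockouts (-0.65 ± 0.09, adjusted p = 6e-07). Mpc1 ran from 39.8 through 49.1 to 60.0 CPM in controls and held 35.1, 34.9, 39.2 and 34.5 CPM (-0.42 ± 0.11, adjusted p = 0.00228), knockout animal 3 lying just below the lowest control. Mpc1 per 100 counts of Mpc2 was 12.2 to 22.2 in controls and 18.2 to 22.2 in Vhl knockouts, which overlapped.

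Beyond the members, 5 of the 10 other PDH genes were lower in Vhl knockouts and none higher, with a median of -0.32: Dld, the E3 enzyme, at -0.78, Pdhx at -0.83 and Lias at -0.49 were among them. Of 7 tested genes of the sister complexes for branched-chain keto acids and 2-oxoglutarate, 6 were lower, including the E2 genes Dbt (-1.83) and Dlst (-0.89), with a median of -0.69. Of the 12 enzymes that make or use pyruvate, 4 were higher and 5 lower, with a median of -0.07. Pyruvate kinase Pkm was higher by 0.83 and the lactate transporter Slc16a1 by 0.80, while citrate synthase Cs was lower by 0.73. Of 28 HIF target genes 21 were higher and 2 lower, with Car9 at 6.17, P4ha1 at 2.39 and Egln1 at 1.37. Of 23 PPAR target genes 14 were lower and 4 higher, with Acadm at -0.70.

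The double knockout, floxed at both genes and compared with its own controls, had all 10 members past the threshold, 3 higher and 7 lower, where 35.4% of genes passed (17.4% higher, 18.1% lower). Mpc1 fell most, by 2.8 times, Pdk1 and Pdk3 rose by 3.1 and 3.2 times, and Pdk4 was called higher here, by 1.6 times. Libraries did not overlap for any of the 10, which held for 24% of all genes. The member median was -0.47, beside 0.01 over all genes and -0.54 over the 10 muscle fibre markers. Without TMM scaling the median gene moved up by 0.35, calls went from 2272 higher and 2366 lower to 6230 and 778, and members to 3 higher and 4 lower. Pdha1 then changed sign at 0.16 (adjusted p = 0.0696), and Pdhb at -0.11 (adjusted p = 0.164) and Pdk2 at -0.11 (adjusted p = 0.246) no longer passed.

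Mpc1 ran from 37.6 through 42.7 to 49.5 CPM in the doubly floxed controls and held 20.2, 11.9, 15.65 and 13.8 CPM in double knockouts. These were the lowest Mpc1 values of batch 2 (-1.49 ± 0.12, adjusted p = 1.09e-13). Mpc2 ran from 207 through 274 to 323 CPM and held 187, 138, 189.6 and 172 CPM (-0.66 ± 0.09, adjusted p = 3.68e-07). Mpc1 per 100 counts of Mpc2 was 11.7 to 23.9 in controls and 8.03 to 10.8 in double knockouts, without overlap.

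Pdha1 ran from 213 through 235 to 243 CPM in controls and held 207, 184, 207 and 211 CPM in double knockouts (-0.19 ± 0.06, adjusted p = 0.0141, or 0.16 without scaling), the smallest change of the 10. The call was lost without knockout animal 2, at -0.15 (adjusted p = 0.0816). Pdhb ran from 142 through 163 to 176 CPM and held 101, 122, 117 and 122 CPM (-0.46 ± 0.07, adjusted p = 1.37e-06). Dlat ran from 82.3 through 86.7 to 94.8 CPM and held 54.3, 52.9, 55.0 and 58.0 CPM (-0.68 ± 0.07, adjusted p = 6.59e-11). Dlat per 100 counts of Pdha1 was 33.8 to 42.4 in controls and 26.2 to 28.8 in double knockouts.

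Pdk1 ran from 19.9 through 25.3 to 31.3 CPM in controls and held 73.4, 73.0, 89.4 and 82.5 CPM in double knockouts (1.62 ± 0.09, adjusted p = 6.18e-20). Pdk3 held 1.97, 1.89, 2.39 and 3.60 CPM, 18 to 46 counts, against 0.544 to 1.11 CPM in controls (1.66 ± 0.31, adjusted p = 2.52e-05). Pdk2 ran from 178 through 185 to 206 CPM in controls and held 154, 134, 137 and 122 CPM (-0.47 ± 0.07, adjusted p = 1.24e-06). Every kinase gene thus had its knockouts on 1 side of its controls, Pdk2 alone below them.

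Pdk4 ran from 311 through 478 to 551 CPM in the doubly floxed controls and held 884, 835, 637 and 669 CPM in double knockouts, all above every control (0.72 ± 0.17, adjusted p = 0.00147). Pdp1 ran from 22.9 through 25.2 to 29.6 CPM and held 9.97, 9.47, 9.94 and 10.2 CPM (-1.37 ± 0.13, adjusted p = 3.25e-12). Its double knockouts varied least of all its groups, with an SD of 0.300 CPM. Pdk1 per 100 counts of Pdp1 was 75.5 to 136 in controls and 736 to 899 in double knockouts.

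**Figure D4:**
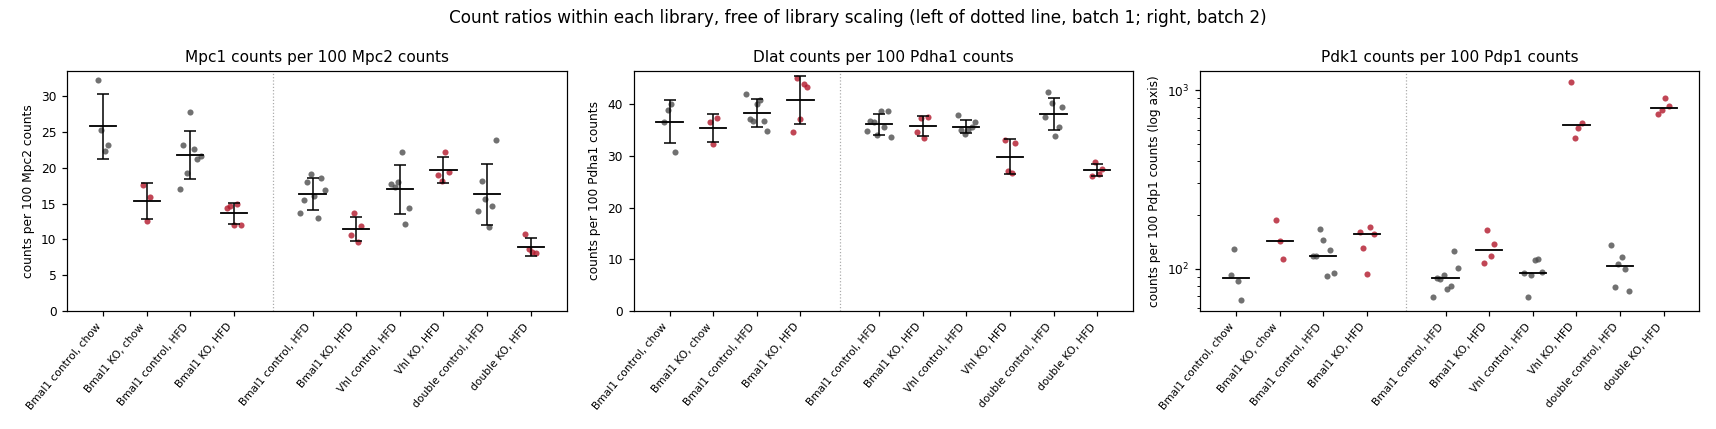
Counts of 1 member per 100 counts of another in each library: Mpc1 per Mpc2 and Dlat per Pdha1 with bars at the mean ± SD, and Pdk1 per Pdp1 on a log axis with a line at the median. Pdk1 per 100 counts of Pdp1 lies between 536 and 1114 in the Vhl and double knockouts and between 69.7 and 165 in every other batch 2 library.

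In the double knockouts 6 of the 10 other PDH genes were lower and none higher, among them Dld (-0.37), Slc19a2 (-0.99), and the lipoyl transferases Lipt1 (-0.53) and Lipt2 (-0.66). Of the 7 sister complex genes 6 were lower, Dbt at -1.26 and Bckdhb, a branched-chain E1 subunit, at -1.23. Of the 12 enzymes that make or use pyruvate, 3 were higher and 4 lower, with a median of -0.09. Pkm was higher by 1.09 and Ldha by 0.73. HIF targets numbered 21 higher and 3 lower of 28. PPAR targets numbered 8 higher and 4 lower of 23, with Angptl4 at 1.51 and the lipid droplet gene Plin5 at 0.78. Muscle fibre markers fell for 9 of 10 (92545 to 100921 CPM against 133130 to 144158 CPM) and endothelial markers rose for 7 of 8 (203 to 280 against 131 to 144 CPM). Adipocyte markers had 1 higher and 4 lower of 8 (791 to 1135 against 528 to 851 CPM), and summed lymphocyte markers were 116 to 211 against 66.4 to 107 CPM. Mitochondrial transcripts took 16.6% to 23.0% of counts in double knockouts and 22.3% to 29.4% in controls, and 27.1% to 34.7% in Vhl knockouts against 34.0% to 38.8%. What part these shifts had in the member values was not tested.

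**Figure D5:**
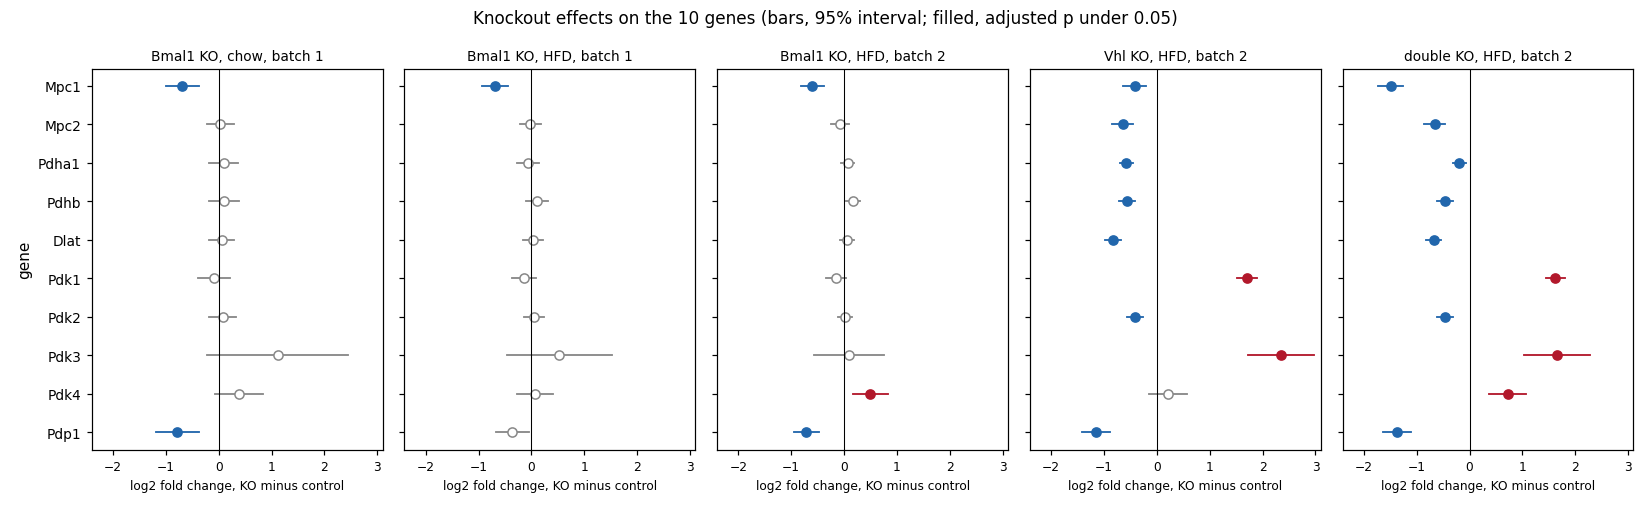
Log2 change of each member in the 5 knockout comparisons with its 95% interval, filled where the adjusted p is under 0.05 (red higher, blue lower). Mpc1 is below 0 in all 5 panels, from -0.42 in Vhl knockouts to -1.49 in double knockouts, and the members other than Mpc1, Pdp1 and Pdk4 are not called in the 3 Bmal1 panels.

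The effects themselves were compared within batch 2, each difference being tested in the fit between effects taken against separate controls. The double knockout effect minus the Vhl effect passed for 2 members, where 8.56% of genes did (4.51% higher, 4.06% lower): Mpc1 was lower by a further 1.07 ± 0.16 on the log2 scale (difference -1.07, adjusted p = 8.92e-06), and Pdha1 fell less (0.38 ± 0.09, adjusted p = 0.00337). For Pdk4 this difference was 0.51 ± 0.24 (adjusted p = 0.222, 95% interval 0.00 to 1.01), so a call in the double knockout and none in the Vhl knockout does not show that the effects differ. Pdk1 differed by -0.08 ± 0.13 (adjusted p = 0.783), Pdk3 by -0.69 (adjusted p = 0.388) and Pdp1 by -0.22 (adjusted p = 0.51). Mpc2 (-0.01 ± 0.13), Pdk2 (-0.05 ± 0.10), Pdhb (0.10 ± 0.10) and Dlat (0.15 ± 0.10) did not pass either.

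The double knockout effect minus the Bmal1 effect passed for 9 members, 2 higher and 7 lower, where 16.7% of genes did (7.69% higher, 9.04% lower). It was -0.89 ± 0.16 for Mpc1 (adjusted p = 4.92e-05), 1.78 ± 0.13 for Pdk1 (adjusted p = 7.88e-15), -0.73 for Dlat (adjusted p = 1.43e-07) and -0.66 ± 0.17 for Pdp1 (adjusted p = 0.00463). Pdk4 did not pass, at 0.23 ± 0.24 with an interval from -0.26 to 0.72 (adjusted p = 0.588). The difference for Pdha1, -0.26 ± 0.09 (adjusted p = 0.0324), was lost when either of 2 Bmal1 knockouts (animals 6 and 8), doubly floxed control animal 4 or double knockout animal 2 was left out, with adjusted p from 0.0531 to 0.0971, and also with no filter on low counts (adjusted p = 0.0544) or a minimum average log2 CPM of 1 (adjusted p = 0.0546). Without TMM scaling the median gene moved by 0.27, calls went from 1007 higher and 1184 lower to 2510 and 294, and members to 2 higher and 3 lower. Pdp1 at -0.39 (adjusted p = 0.117), Mpc2 at -0.31 (adjusted p = 0.168), Pdk2 at -0.20 (adjusted p = 0.166) and Pdha1 at 0.016 (adjusted p = 0.932) then no longer passed.

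The Vhl effect minus the Bmal1 effect passed for 7 members, 2 higher and 5 lower, where 25.3% of genes did (12.2% higher, 13.1% lower). Pdk1 (1.86) and Pdk3 (2.26) were higher and Mpc2 (-0.57), Pdha1 (-0.64), Pdhb (-0.73), Dlat (-0.88) and Pdk2 (-0.43) lower. The 3 members called in Bmal1 knockouts of batch 2 were those that did not pass: Mpc1 at 0.18 (adjusted p = 0.422), Pdp1 at -0.43 (adjusted p = 0.0569) and Pdk4 at -0.28 (adjusted p = 0.436). Pdp1 passed with no filter on low counts (adjusted p = 0.0419) and without Bmal1fx/fx control animal 8, Bmal1 knockout animal 7, Vhlfx/fx control animal 1 or Vhl knockout animal 2 (adjusted p from 0.0254 to 0.0429). Without scaling the median gene moved by 0.26, calls in this comparison went from 1594 higher and 1717 lower to 3264 and 590, and members to 3 higher and 3 lower. Mpc2 at -0.31 (adjusted p = 0.155) and Pdk2 at -0.16 (adjusted p = 0.252) then no longer passed, and Mpc1 did, at 0.45 (adjusted p = 0.0187).

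The comparison of the double knockout effect with the sum of the single effects was chosen after seeing the data. No member passed, where 3.79% of genes did: edgeR called 0 of 10 members and DESeq2 1 of 10, and 2199 of 13093 genes had an unadjusted p under 0.05. Mpc1 was at -0.47 ± 0.19 (adjusted p = 0.176), Pdha1 at 0.32 ± 0.11 (adjusted p = 0.0837) and Pdp1 at 0.49 ± 0.21 (adjusted p = 0.21). Pdha1 was the member called by DESeq2 (adjusted p = 0.0417), and it also passed without animal 2 of the Vhl knockouts or of the double knockouts (adjusted p = 0.0325 and 0.0484), as Mpc1 did without double knockout animal 1 (-0.63, adjusted p = 0.0381). Pdk3 was at -0.78 ± 0.56, and the other 6 members lay between -0.07 and 0.10. Without scaling the genes called went from 281 higher and 215 lower to 134 and 297.

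Diet changed no member that was called. In the batch 1 controls high-fat feeding called 0 of the 10 members by edgeR, where 2.37% of genes passed and 1619 of 12762 had an unadjusted p under 0.05. The log2 differences, high-fat minus chow, ran from -0.31 for Pdp1 to 0.43 for Pdk3, and the smallest adjusted p was 0.393, for Pdhb at 0.23 ± 0.11. Pdk4 was at -0.01 ± 0.17 with an interval from -0.38 to 0.36. In the Bmal1 knockouts 0 of 10 passed, where 3.28% of genes did, from -0.33 ± 0.20 for Pdk4 to 0.24 ± 0.13 for Pdhb. Without chow knockout animal 2 the Pdk4 difference was -0.60 (adjusted p = 0.0346).

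The effect of Bmal1 loss did not pass a test of a difference between the diets for any member or any gene: edgeR called 0% of genes and DESeq2 3 genes, with 575 of 12762 genes at an unadjusted p under 0.05. Mpc1 was -0.69 on each diet, a difference of 0.00 with an interval from -0.39 to 0.39. Pdp1 differed by 0.42 ± 0.25, Pdk3 by -0.59 ± 0.82 and Pdk4 by -0.32 ± 0.27, and the other 6 members by -0.15 to 0.01. The diet did change other genes linked to these: PPAR targets numbered 4 higher and 0 lower of 23 in controls, with Angptl4 at 0.89, and 6 and 0 in knockouts, and glucocorticoid and FOXO targets 0 and 4 of 19 in controls. Of the regulators, Ppargc1a was higher by 0.96 and Lpin1 lower by 0.55 in controls. Without TMM scaling the calls between diets went from 193 higher and 109 lower to 107 and 602 in controls, where the median gene moved by -0.17, and from 219 and 200 to 118 and 316 in knockouts.

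Across the groups of batch 2, Mpc1 means rose from 15.4 CPM in double knockouts through 29.9 in Bmal1 knockouts and 35.9 in Vhl knockouts to 42.8, 45.3 and 48.2 CPM in the 3 control groups. The double knockout libraries lay below all others. Neighbouring control means lay within each other's SD of 4.21 to 7.33 CPM. Dlat means stood at 47.2 and 55.0 CPM in Vhl and double knockouts and between 83.8 and 90.1 CPM elsewhere. Pdk4 means were 374, 448 and 459 CPM in the controls and 519.7, 525.8 and 756 CPM in the Vhl, Bmal1 and double knockouts, and the first pair of these lay within their SDs of 146 and 42.8 CPM.

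Within groups, after each group's mean was removed, the closest members over 51 libraries were Pdhb and Dlat (Pearson r = 0.62), Pdha1 and Dlat (0.61) and Mpc2 and Pdha1 (0.56). Among other genes, patterns were compared by Pearson r of log2 CPM centred on the batch mean, over 51 libraries and 11358 genes. Most like Mpc1 were Mylk4 (0.91), Tcap (0.90) and Nr1d1 (0.88), and most like Pdk1 were Egln1 (0.95), Bnip3 (0.95) and Ak4 (0.94). Dlat was closest to Cox6a2 (0.94), Kif1b (0.92) and Hspa9 (0.92), Pdha1 to Grsf1 (0.88), Sdha (0.86) and Phyh (0.86), and Pdhb to Hadh (0.87), Sdhb (0.86) and Rmdn1 (0.86). For Mpc2 they were Dbt (0.87), Fh1 (0.86) and Mtfp1 (0.85), for Pdp1 Tmem233 (0.91), Bhlhe41 (0.90) and Sspn (0.88), and for Pdk2 Ccdc86 (0.84), Clcn1 (0.84) and Aldoa (0.83). Pdk3 was closest to Tspan13 (0.76), Car9 (0.76) and Tmod3 (0.75), and Pdk4 to Pnrc1 (0.68), Tln2 (0.68) and Tmcc3 (0.66). These values rest largely on the group differences for Mpc1 and Pdk1, and less so for Dlat and Mpc2. Within groups the r of Mpc1 and Mylk4 was -0.11 and that of Pdk1 and Egln1 0.08, against 0.56 for Dlat and Cox6a2 and 0.70 for Mpc2 and Dbt. Libraries share batch and depth, and no p is given.

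Genes that overlap members in the annotation or resemble them held few reads. The overlapping 4930506C21Rik (Mpc1), Gm37860 (Mpc2), Map3k15 (Pdha1) and Gm11513 (Pdk2) reached at most 4, 19, 8 and 0 counts, and the pseudogene Mpc1-ps and the paralog Pdha2 at most 7 and 1. Mpc1 itself held 163 to 621 counts per library. The sources used here do not say whether counting used strand, so reads of a member and its antisense neighbour cannot be told apart.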

How the data were processed

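Gastrocnemius RNA of 51 mice in 10 groups and 2 batches was measured by 3′ mRNA sequencing. The authors deposited whole-number read counts per gene symbol, in 1 table per batch. Per the submitters' processing notes, the tools were FastQC 0.11.4, STAR 2.6.0, HTSeq and edgeR 3.26.8, and the builds were mm10 and GRCm38.p4. They do not state the counting settings.

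From the deposited counts, the tests were made with edgeR 4.0.16 (limma 3.58.1, R 4.3.3): low-count genes were removed by its default filter, libraries scaled by TMM, and a robust quasi-likelihood fit made per batch over all its groups, with Benjamini-Hochberg adjustment over all genes tested. Bmal1 knockouts on the high-fat diet were also fitted over both batches with batch as a term. The fits were tested on simulated data. Levels are CPM, and 3′ counts compare samples for 1 gene and not genes with each other. For 3 batch 2 Bmal1 knockouts the column names end in other numbers than the titles; animals are named by their titles. In batch 2 the symbols of 27 rows had been turned into dates; none is a member. Count precision follows depth: Pdk3 held few counts per library and Mpc2 many.

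The 10 members and all gene lists were chosen with earlier results of these data known. Members are given singly or by their range in each comparison, with up to 4 called genes of smallest p from each other list and the 3 genes of highest correlation for members called at least 2 times; a few list genes are not reported here. Those lists came from textbook knowledge of the pathway. Alternatives were DESeq2 1.42.0, no filter, an average log2 CPM minimum of 1, no scaling, no robust option, groups fitted alone, a stricter adjusted p of 0.01, a block for the animal number, each animal left out in turn, and mitochondrial transcripts left out.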

Additional observations from a re-analysis of the deposited data

Results flagged for a closer look

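Within the 9 groups of 4 to 8 libraries, 90 pairs of member and group were checked for a library standing apart from the rest of its group, and 6 did, where chance alone gives about 1 in 20, or 4.5. Vhlfx/fx control animal 5 accounts for 3 of them, being highest for Mpc2 at 327 CPM (the others 271 to 289), for Pdha1 at 266 CPM (222 to 236) and for Dlat at 94.5 CPM (80.6 to 84.6). Vhl knockout animal 3 was highest for Mpc1 at 39.2 CPM (34.5 to 35.1), and Vhl knockout animal 4 was highest for Pdhb at 133 CPM (104 to 108). Double knockout animal 2 was lowest for Pdha1 at 184 CPM (207 to 211), the library on which the Pdha1 call there rests. The chow Bmal1 knockouts, with 3 libraries, were not checked. No cause was tested for any of the 6.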

How the results depend on the processing

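Directions and calls of the Vhl and double knockout comparisons for Dlat, Mpc2, Pdk1, Pdk3 and Pdp1, and the directions of Mpc1 in all 5 knockout comparisons, were the same under every alternative that gave them a value (an average log2 CPM minimum of 1 removed Pdk3). Single members kept their direction and side of the threshold in 1017 of 1081 other alternatives and in 1494 of 1562 that left out 1 animal. The cause of a change was not tested, and an alternative that uses fewer genes or animals shows only dependence on those left out. Depth limits Pdk3, and 3′ counts cannot show which transcript form changed.

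The labels do not say whether animal numbers tie animals across groups. Over 2 to 5 pairs a comparison, the correlation of same-numbered deviations ran from -0.29 to 0.17 by the titles. By the column names, whose numbers differ for 3 batch 2 Bmal1 knockouts, it ran from -0.068 to 0.066 over 3 pairs. So few pairs cannot exclude a tie. With a replicate block, batch 2 Bmal1 knockouts had 598 genes and 1 member called, Mpc1 at -0.53 (adjusted p = 0.118) and Pdk4 at 0.80 (adjusted p = 0.0875), and Dlat (-0.048), Pdha1 (-0.038) and Pdk2 (-0.17) changed sign, as did Dlat in batch 1 (-0.017). The block gave 717 genes and 5 members for double minus Bmal1, 1318 genes for Vhl minus Bmal1, 225 for double minus the sum, and 1 for diet by genotype. In double minus Bmal1 it ended the calls of Pdk2, Pdk3, Pdp1 and Pdha1 (adjusted p = 0.253, 0.359, 0.133 and 0.587) and turned Pdk4 to -0.16, and in Vhl minus Bmal1 those of Pdk2 (-0.24, adjusted p = 0.313) and Pdk3 (1.78, adjusted p = 0.0585). A block by the column names, chosen after seeing the data, gave 901 genes in batch 2 Bmal1 knockouts, 1374 for double minus Bmal1 and 201 for double minus the sum; Pdk4 in Bmal1 knockouts (adjusted p = 0.0706), and Pdha1 and Pdk3 in double minus Bmal1 (adjusted p = 0.259 and 0.125), no longer passed.

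At an adjusted p of 0.01, genes called were 725 (Bmal1, high-fat, batch 1), 258 (chow, with 1 member), 121 and 157 (diet in controls and in knockouts), 1297, 545 and 2084 (double minus Bmal1, double minus Vhl, Vhl minus Bmal1) and 164 (double minus the sum). The chow groups fitted alone called 313 genes. Without scaling, genes called were 7008 in the double knockout, 709 for diet in controls (1 member), 1 for diet by genotype and 0 between the batches, and members 5 for double minus Bmal1 and 7 in the joint fit. With no filter, genes were 492 for diet in controls, 8 for diet by genotype and 14 between the batches. DESeq2 called 3 genes for diet by genotype, 2 between the batches and 1 member for double minus the sum. Leaving out mitochondrial transcripts and scaling gave 0 between the batches.

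Signs also changed without scaling for Mpc2 (0.12), Pdha1 (0.093) and Pdk1 (0.021) in batch 1 high-fat Bmal1 knockouts, Mpc2 in batch 2 (0.0039) and in the joint fit (0.067), and Pdha1 in the double knockout (0.16) and in double minus Bmal1 (0.016). With mitochondrial transcripts also left out they changed for Mpc2 (0.037) and Pdha1 (0.0034) in batch 1, Mpc2 in the joint fit (0.0026) and Pdha1 in the double knockout (0.018), and with TMM kept for Pdha1 in the joint fit (-0.0041). Without these transcripts and without scaling, calls changed too. Mpc1 in Vhl knockouts (-0.18, adjusted p = 0.178) and Pdk2 in Vhl minus Bmal1 (-0.23, adjusted p = 0.058) no longer passed. Nor did Pdha1 in the double knockout (adjusted p = 0.833) and in double minus Bmal1 (-0.091, adjusted p = 0.498). Pdk4 in Vhl knockouts then passed (0.46, adjusted p = 0.0298). Pdhb did in batch 2 Bmal1 knockouts (0.21, adjusted p = 0.0152) and the joint fit (0.20, adjusted p = 0.0111). Mpc2 on chow was -0.020 without chow control 2 and knockout 1, which, with the mitochondrial alternatives, was chosen after seeing the data.

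Leaving out 1 animal moved genes called to between 293 and 502 on chow, 132 and 370 for diet in knockouts, 181 and 308 for diet in controls, 300 and 972 for double minus the sum, 0 and 3 for diet by genotype and 0 and 2 between the batches. Members ran from 1 to 2 on chow, 0 to 1 for diet in knockouts and for double minus the sum, and 2 to 4 in the joint fit. Signs changed among uncalled members: on chow Dlat (-0.017 to 0.12), Mpc2 (-0.048 to 0.11), Pdha1 (-0.042 to 0.25), Pdk1 (-0.18 to 0.029) and Pdk2 (-0.074 to 0.22), in batch 1 high-fat Dlat (-0.030 to 0.072) and Mpc2 (-0.12 to 0.016), in batch 2 Pdk2 (-0.016 to 0.062) and Pdk3 (-0.071 to 0.25), in the joint fit Pdha1 (-0.028 to 0.027), and for diet by genotype Pdk3 (-1.41 to 0.52).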

Other observations

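Fixed lists around the member genes gave values not used in a comparison above. Of 19 glucocorticoid and FOXO target genes, signals known to raise Pdk4, 1 was higher and 8 lower in batch 2 Bmal1 knockouts (median -0.45), led by the glutamine synthetase Glul at -1.09 and the ubiquitin ligase Fbxo32 at -0.85, with the metallothionein Mt1 higher at 1.28. In batch 1 this count was 1 and 6 on the high-fat diet and 2 and 2 on chow, and in Vhl and double knockouts 4 and 6, and 3 and 6. Of 15 regulators of the PDH kinase genes, 3 were higher and 4 lower in Vhl knockouts and 3 and 7 in double knockouts. The fatty acid receptor Ppard was higher in the double knockouts at 0.82 and the HIF subunit gene Epas1 at 0.47, while Esrra was lower at -0.40 and Hif1a at -0.60. The median over all genes was -0.00777 in batch 2 Bmal1 knockouts and 0.01 in Vhl and double knockouts.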
